A study of Mus musculus with 8 samples.

Results

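Expression of 10 genes of FOXO signalling, muscle protein breakdown and mitophagy was examined in hearts that lack the AE3 anion exchanger. These were the FOXO factors Foxo1, Foxo3 and Foxo4, the muscle ubiquitin ligases Fbxo32 and Trim63, the mitophagy genes Bnip3, Bnip3l, Fundc1 and Pink1, and the autophagy adaptor Sqstm1. Members were the rows of the deposited count table whose Entrez number maps to these symbols, and all 10 were found among 23282 genes. RNA-seq had been run on total RNA of hearts from AE3-null male FVB/N mice aged 4 months (4 libraries) and from wild-type males of the same strain and age (4 libraries). AE3, encoded by Slc4a3, exchanges chloride for bicarbonate across the membrane of heart muscle cells. The labels do not say how the null allele was made, whether it is absent from all cells, or whether atria were included with the ventricles. The design text counts 4 animals of each genotype but does not tie a library to an animal. The p-values therefore speak of the spread among libraries, which may in part be technical.

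FOXO factors are transcription factors that insulin and growth factor signalling restrains: the kinase AKT phosphorylates them and they leave the nucleus. In striated muscle, active FOXO raises the ubiquitin ligase genes called atrogenes, which mark muscle proteins for the proteasome, and genes of autophagy, in which a membrane bearing LC3 and GABARAP proteins encloses cargo for the lysosome. Mitophagy is the autophagy of mitochondria. It is set in motion by receptors of the outer mitochondrial membrane that bind LC3 directly, or by the kinase PINK1, which accumulates on damaged mitochondria and recruits the ubiquitin ligase parkin. The heart depends on both routes because its muscle cells are packed with mitochondria and are rarely replaced.

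Library totals ran from 9133628 to 27078351 counts in the AE3-null group and from 14875281 to 19080858 in the wild-type group, and the members had at least 221 counts in every library. Expression is reported in CPM, where each count is divided by its TMM-scaled library size so that libraries of unequal depth can be compared. Slc4a3 had 31.5 to 34.6 CPM in AE3-null libraries, against 378 to 389 CPM in wild-type libraries, so the targeted gene matched the genotype label in all 8. The libraries expressed heart muscle markers at a high level: 10 genes such as Myh6 and Tnnt2 summed to 98215 to 105083 CPM in AE3-null and 98012 to 106295 CPM in wild-type hearts, with none at 0. In a principal component analysis wild-type replicate 3 lay away from the rest: its score on component 2 was -22.6, and the scores of the remaining 7 libraries ran from -1.48 to 8.89.

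Sqstm1, Bnip3, Fbxo32 and Foxo1 were lower in AE3-null hearts, and no member was called higher. Sqstm1 fell by 0.27 and Bnip3 by 0.50 on the log2 scale, whereas Fbxo32 and Foxo1 fell less, to 89.8% and 89.6% of their wild-type levels. Fundc1 had a log2 fold change of -0.16 and Trim63 one of 0.16, and neither passed the test. The log2 fold changes of Pink1, Foxo4, Foxo3 and Bnip3l lay between -0.071 and 0.030. Calls are adjusted p-values under 0.05 from edgeR's quasi-likelihood test over all 14136 tested genes with Benjamini-Hochberg adjustment. By this rule 4 of 10 members were lower and 0 higher, beside 6.47% of all tested genes called in either direction, 3.31% called lower and 3.16% called higher. The members were chosen with earlier results of these data known, so these shares are a description and not a test. All tested genes also include genes with fewer counts than any member, so the shares are not matched for depth. At an unadjusted p under 0.05 there were 6 members, of which 1, Trim63, was higher. The share of all tested genes at that threshold is not reported here, so this and later counts at it have no background beside them. DESeq2 and limma voom called 3 and 4 members lower and 0 higher. The libraries of the genotypes did not overlap for 5 members, all lower, against 6.15% of all tested genes separated in that direction. The median log2 fold change of the members was -0.11, and that of all tested genes was -0.0018. With a library left out, the number of members called was 3 without AE3-null replicate 1, 2 without AE3-null replicate 2, 3 or 4 or wild-type replicate 1 or 4, and 1 without wild-type replicate 2. Without wild-type replicate 3 it was 4, of which 3 were lower and 1 higher. With libraries scaled by total counts alone it was 2. With a stress score as covariate, the mean log2 level of 20 heat shock and immediate early genes in each library, it was 1. The score was lower in every AE3-null library than in wild-type replicates 1, 2 and 4, so the fit cannot separate it from genotype. In bulk tissue, fewer cells of a type and less RNA per cell cannot be told apart.

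**Figure D1:**
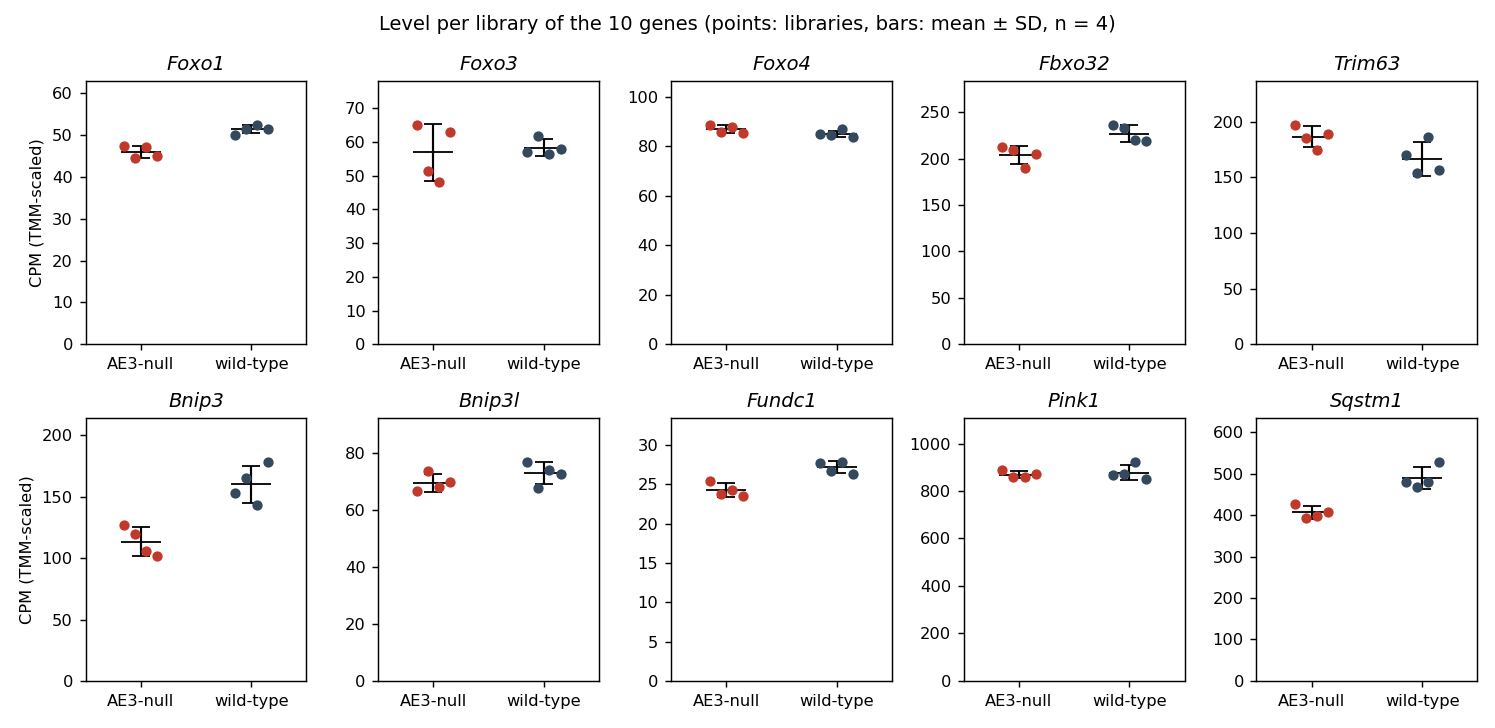
CPM of each of the 10 genes in every library, with AE3-null libraries on the left and wild-type libraries on the right of each panel. Points are libraries and bars are the mean ± SD of 4. The AE3-null points lie below all wild-type points for Foxo1, Fbxo32, Bnip3, Fundc1 and Sqstm1 and overlap them for the other 5 genes.

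Per kilobase of merged exons, an approximate scale because the annotation used for counting is not given, Pink1 was the most abundant member and Foxo1 the least. Pink1 stood at 325 ± 5.80 CPM per kilobase in AE3-null and 328 ± 12.1 in wild-type hearts (SD, n = 4 each), and Sqstm1 followed at 144 ± 5.33 and 173 ± 9.53. Foxo1 stood at 5.31 ± 0.162 CPM per kilobase in AE3-null and 5.93 ± 0.110 in wild-type hearts (SD, n = 4 each). On the same scale the wild-type order was Pink1, Sqstm1, Trim63, Bnip3, Fbxo32, Foxo4, Bnip3l, Fundc1, Foxo3 and Foxo1. Neighbours in it did not overlap between libraries except Trim63 and Bnip3, whose wild-type levels were 81.5 to 98.9 and 77.5 to 96.3 CPM per kilobase. In AE3-null hearts Trim63, at 92.6 to 104 CPM per kilobase, lay above Bnip3, at 54.7 to 68.4, in every library.

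Foxo1, the FOXO factor best known for restraining growth and for the response to insulin, had 47.3, 44.5, 47.1 and 45.1 CPM in AE3-null replicates 1 to 4, against 50.1, 51.5, 52.4 and 51.5 CPM in wild-type replicates 1 to 4. The highest AE3-null library lay below the lowest wild-type library. This was a log2 fold change of -0.16 (SE 0.0447, edgeR adjusted p 0.0446). This call was lost whichever library was left out, with edgeR adjusted p-values of 0.0733, 0.108, 0.0756 and 0.140 without AE3-null replicates 1 to 4 and 0.0698, 0.0868, 0.0571 and 0.115 without wild-type replicates 1 to 4. The log2 fold change stayed between -0.19 and -0.14 in all 17 alternative settings. The calls of Foxo1 and of the other members concern RNA only, and neither phosphorylation nor the place of the protein in the cell was measured.

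Foxo3, the FOXO factor most closely tied to atrogene and autophagy transcription in muscle, had 65.1, 51.5, 48.2 and 63.0 CPM in AE3-null replicates 1 to 4, against 57.1, 61.9, 56.4 and 58.0 CPM in wild-type replicates 1 to 4. The AE3-null libraries fell on both sides of the wild-type range, with replicates 1 and 4 above all wild-type libraries and replicates 2 and 3 below them. The standard deviation was 8.35 CPM in AE3-null and 2.45 CPM in wild-type hearts. Its log2 fold change of -0.026 had a 95% confidence interval from -0.23 to 0.18, and it turned positive, at 0.016, 0.051 and 0.0054, without AE3-null replicate 2, AE3-null replicate 3 or wild-type replicate 2.

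Foxo4, the X-linked member of the family, varied little. It had 88.6, 85.8, 87.7 and 85.3 CPM in AE3-null replicates 1 to 4, against 85.1, 84.7, 86.7 and 83.8 CPM in wild-type replicates 1 to 4. The groups overlapped, and the log2 fold change of 0.030 had a 95% confidence interval from -0.048 to 0.11. The ratio of Foxo1 to Foxo4 CPM within a library, chosen after the values were seen and not tested, was 0.529 ± 0.00787 in AE3-null and 0.604 ± 0.0109 in wild-type hearts (SD, n = 4 each), with no overlap between the groups. The ratio of Foxo1 to Foxo3 did overlap, at 0.716 to 0.977 in AE3-null and 0.833 to 0.929 in wild-type hearts.

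Fbxo32 encodes atrogin-1, the F-box protein that brings muscle substrates to an SCF ubiquitin ligase. It had 212, 209, 190.0 and 205 CPM in AE3-null replicates 1 to 4, against 236, 233, 220 and 219 CPM in wild-type replicates 1 to 4. Every AE3-null library lay below every wild-type library. The difference was -0.15 on the log2 scale (SE 0.0416, edgeR adjusted p 0.0352). The call was lost without AE3-null replicates 2, 3 or 4 (edgeR adjusted p 0.0586, 0.120 and 0.0884) and without wild-type replicates 1, 2 or 4 (0.117, 0.0908 and 0.0524). It was also lost with total counts only (0.0668), without robust moderation (0.0527) and with the stress score as covariate (0.304), and the log2 fold change stayed between -0.17 and -0.11 in all 17 settings.

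Trim63 encodes MuRF1, a RING-type ubiquitin ligase of the sarcomere that acts on thick filament proteins. It had 197, 185, 175 and 189 CPM in AE3-null replicates 1 to 4, against 170, 154, 186 and 156 CPM in wild-type replicates 1 to 4. Wild-type replicate 3, the library that stood apart, lay inside the AE3-null range, and the other 3 wild-type libraries lay below all AE3-null libraries. The log2 fold change of 0.16 (SE 0.0581) did not pass the test over all genes (edgeR adjusted p 0.120). Without wild-type replicate 3 it was 0.22 and passed (edgeR adjusted p 0.00329). In that setting 1727 of all genes were called, against 915 with all libraries. With the stress score as covariate the log2 fold change of Trim63 was 0.076 (edgeR adjusted p 0.626). Trim63 passed in 1 of the 17 alternative settings. The log2 fold changes of Fbxo32 and Trim63, the atrogenes best known as a pair, had opposite signs in all 17 settings. These settings reuse the same libraries and are not independent of each other. Their ratio within a library, chosen after the values were seen and not tested, was 1.09 ± 0.0240 for Fbxo32 to Trim63 in AE3-null and 1.37 ± 0.140 in wild-type hearts (SD, n = 4 each). The 4 AE3-null ratios, 1.08 to 1.13, lay below the wild-type ratios, 1.18 to 1.51, of which wild-type replicate 3 had the lowest.

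**Figure D2:**
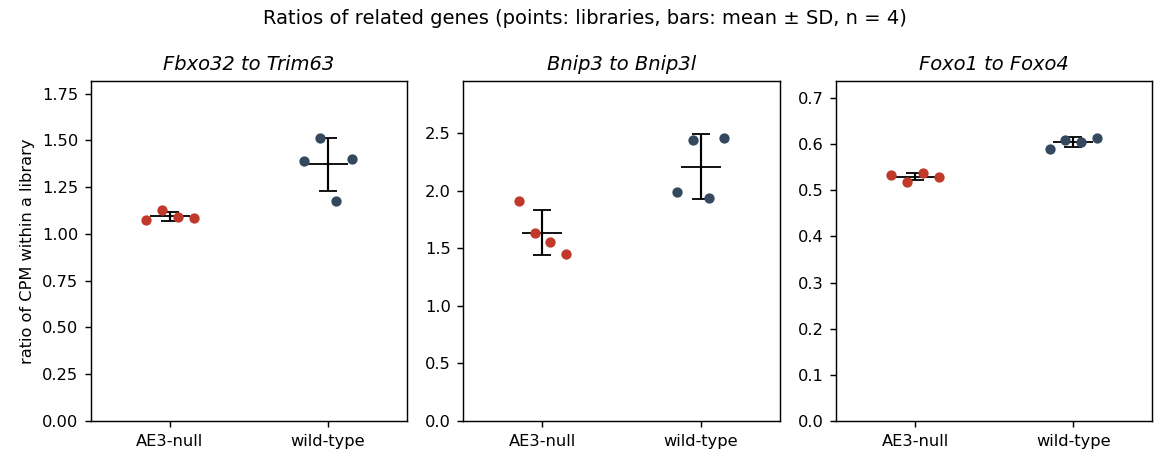
Ratio of the CPM of paired genes within each library, with AE3-null libraries on the left and wild-type libraries on the right. Points are libraries and bars are the mean ± SD of 4. For the 3 ratios plotted, chosen after the values were seen, the AE3-null points lie below the wild-type points: 1.08 to 1.13 against 1.18 to 1.51 for Fbxo32 to Trim63, 1.45 to 1.91 against 1.94 to 2.46 for Bnip3 to Bnip3l, and 0.519 to 0.537 against 0.589 to 0.614 for Foxo1 to Foxo4.

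Bnip3, a mitophagy receptor of the outer mitochondrial membrane that hypoxia-inducible factor (HIF) and FOXO3 are known to induce, was the member with the largest difference. It had 127, 120, 106 and 101 CPM in AE3-null replicates 1 to 4, against 153, 165, 144 and 179 CPM in wild-type replicates 1 to 4. The highest AE3-null library lay below the lowest wild-type library. AE3-null replicates 3 and 4 were the lowest and wild-type replicates 2 and 4 the highest. Its log2 fold change of -0.50 (SE 0.0896, edgeR adjusted p 0.0154) left 70.7% of the wild-type level. The call was lost without wild-type replicate 2 (edgeR adjusted p 0.0534), at a log2 fold change of -0.48, and with the stress score as covariate (0.168), at -0.44.

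Bnip3l, also called NIX, is the close relative of Bnip3 that clears mitochondria from maturing red blood cells. It had 66.6, 73.7, 68.1 and 69.9 CPM in AE3-null replicates 1 to 4, against 77.0, 67.7, 74.2 and 72.6 CPM in wild-type replicates 1 to 4. The groups overlapped, and the log2 fold change of -0.071 had a 95% confidence interval from -0.17 to 0.031, which lies wholly above the interval of Bnip3, -0.71 to -0.30. A pseudogene of Bnip3l is annotated in mouse, and whether the authors' counting could split reads with it is not given in the sources used here. The ratio of Bnip3 to Bnip3l, chosen after the values were seen and not tested, was 1.64 ± 0.195 in AE3-null and 2.21 ± 0.282 in wild-type hearts (SD, n = 4 each).

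Fundc1, another receptor of the outer membrane that binds LC3, had 25.4, 23.8, 24.3 and 23.5 CPM in AE3-null replicates 1 to 4, against 27.7, 26.7, 27.9 and 26.3 CPM in wild-type replicates 1 to 4. The groups did not overlap, yet the log2 fold change of -0.16 (SE 0.0532) did not pass the test over all genes (edgeR adjusted p 0.0859). It did not pass in any of the 17 settings, and its log2 fold change stayed between -0.19 and -0.14.

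Pink1, the kinase of the parkin route, had 890, 858, 857 and 870.1 CPM in AE3-null replicates 1 to 4, against 866, 873, 924 and 849 CPM in wild-type replicates 1 to 4. The AE3-null libraries lay inside the wild-type range. Its log2 fold change of -0.015 had a 95% confidence interval from -0.086 to 0.057, the narrowest of the 10 members.

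Sqstm1 encodes p62, the adaptor that binds ubiquitin on cargo and LC3 on the autophagy membrane, and is a known target of the oxidative stress factor NRF2. It had 427, 393, 399 and 407 CPM in AE3-null replicates 1 to 4, against 480, 469, 481 and 529 CPM in wild-type replicates 1 to 4. All AE3-null libraries lay below all wild-type libraries, and wild-type replicate 4 was the highest. Its log2 fold change of -0.27 (SE 0.0413, edgeR adjusted p 0.00111) left 83.0% of the wild-type level. Of the 4 called members it was the only one whose call held in all 17 alternative settings, with adjusted p-values from 3.35e-06 to 0.00731.

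**Figure D3:**
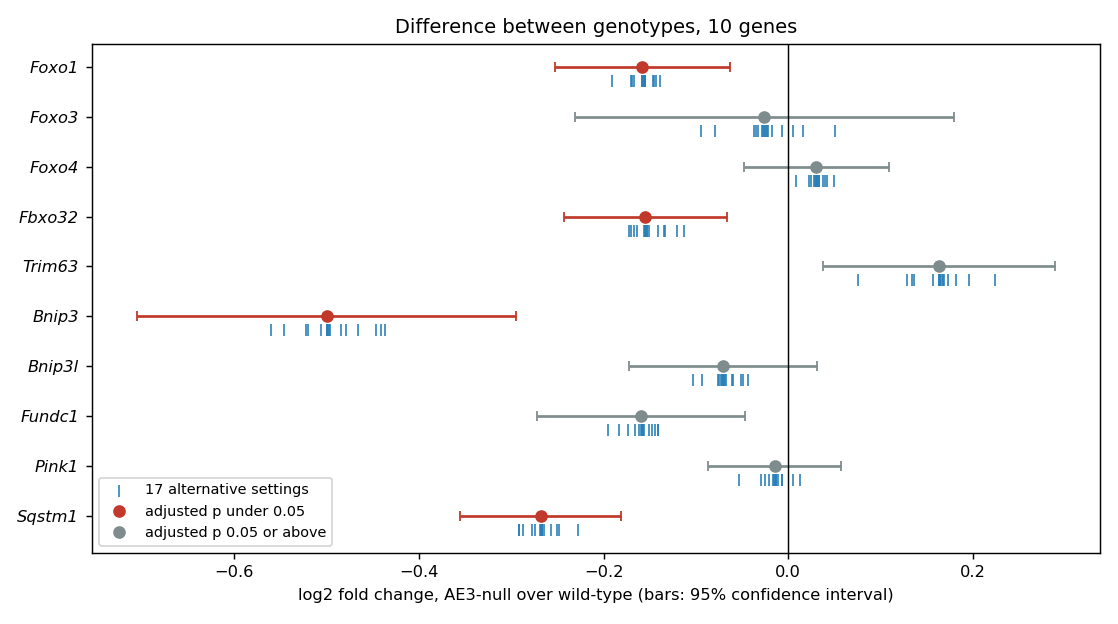
Log2 fold change of each of the 10 genes, AE3-null over wild-type, with its 95% confidence interval, in red where the adjusted p was under 0.05. Blue ticks under each gene are its values in 17 alternative settings. Foxo1, Fbxo32, Bnip3 and Sqstm1 are the genes in red, and the ticks lie on both sides of 0 only for Foxo3 and Pink1.

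Promoter windows for 7 of the 10 members, all but Foxo4, Fbxo32 and Bnip3l, were found in the RefSeq table of build GRCm38.p6. The 250 bases before the annotated start were searched on both strands, so elements farther away would be missed. The letters searched were ACGTG, the core of HIF response elements, GTAAACA, a FOXO element, and TGACNNNGC, the core of the elements NRF2 binds. The windows below are of the members Bnip3, Sqstm1 and Trim63, in which these elements are of most interest, and of Egln3 and P4ha2, HIF target genes that were lower together with Bnip3 and whose windows hold the HIF letters. Capitals mark the letters found, and each window is given on the strand of its gene.
Bnip3 chr7:138909507-138909756, minus strand: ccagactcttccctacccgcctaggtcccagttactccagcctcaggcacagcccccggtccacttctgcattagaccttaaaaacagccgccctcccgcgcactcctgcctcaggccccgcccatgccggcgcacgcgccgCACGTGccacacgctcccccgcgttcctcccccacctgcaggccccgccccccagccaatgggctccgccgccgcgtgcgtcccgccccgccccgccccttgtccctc
Sqstm1 chr11:50210821-50211070, minus strand: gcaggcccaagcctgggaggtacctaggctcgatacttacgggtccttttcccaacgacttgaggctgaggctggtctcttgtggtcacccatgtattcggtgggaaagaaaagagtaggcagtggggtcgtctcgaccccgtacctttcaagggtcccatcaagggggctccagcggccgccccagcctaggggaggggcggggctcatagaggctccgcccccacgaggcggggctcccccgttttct
Trim63 chr4:134314870-134315119, plus strand: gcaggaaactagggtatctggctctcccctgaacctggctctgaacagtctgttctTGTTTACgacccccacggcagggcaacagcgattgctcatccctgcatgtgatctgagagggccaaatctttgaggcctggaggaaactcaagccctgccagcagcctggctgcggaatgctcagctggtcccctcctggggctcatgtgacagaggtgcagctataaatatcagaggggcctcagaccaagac
Egln3 chr12:54203875-54204124, minus strand: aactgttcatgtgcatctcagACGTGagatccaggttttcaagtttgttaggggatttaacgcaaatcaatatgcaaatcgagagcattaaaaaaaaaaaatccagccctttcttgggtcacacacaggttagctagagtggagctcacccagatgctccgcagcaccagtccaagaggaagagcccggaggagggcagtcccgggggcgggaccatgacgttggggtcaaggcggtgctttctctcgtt
P4ha2 chr11:54100674-54100923, plus strand: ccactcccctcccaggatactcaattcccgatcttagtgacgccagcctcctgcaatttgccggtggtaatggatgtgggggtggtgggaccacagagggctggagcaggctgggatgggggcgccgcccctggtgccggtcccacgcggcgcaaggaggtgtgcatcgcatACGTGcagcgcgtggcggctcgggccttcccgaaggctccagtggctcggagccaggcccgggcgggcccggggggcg

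In the Bnip3 window ACGTG occurred on both strands, in overlapping matches that start 108 and 107 bases before the annotated start. In the Egln3 window it starts 229 bases before the start and in the P4ha2 window 78 bases before it. The window of Vegfa, a HIF target that was also lower, did not hold these letters. ACGTG was present in 1 of 7 member windows, in 13 of 20 windows of the other HIF target genes listed, and in 21.4% of the 11105 windows of all tested genes. In the Trim63 window GTAAACA occurred on the opposite strand, at 194 to 188 bases before the start. It was present in 1 of 7 member windows, in 2 of 27 windows of the FOXO targets listed, and in 2.12% of all windows. TGACNNNGC was found in 0 of 7 member windows, that of Sqstm1 included. It was found in 4 of 14 windows of the other NRF2 targets and regulators listed, and in 1336 of all 11105 windows. These are matches of letters and not measured binding.

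The other genes of the pathway were described in 9 lists that hold 239 genes apart from the members, of which 237 were tested. Of these, 4 were higher and 19 lower in AE3-null hearts, 9.70% against 6.47% of all tested genes. Their median log2 fold change was -0.023. The lists, like the members, were chosen with earlier results of these data known, so their shares are a description and not a test. The number called was 13 without AE3-null replicate 3, AE3-null replicate 4 or wild-type replicate 4, 15 without wild-type replicate 2 and 35 without wild-type replicate 3. With the stress score as covariate it was 7.

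**Figure D4:**
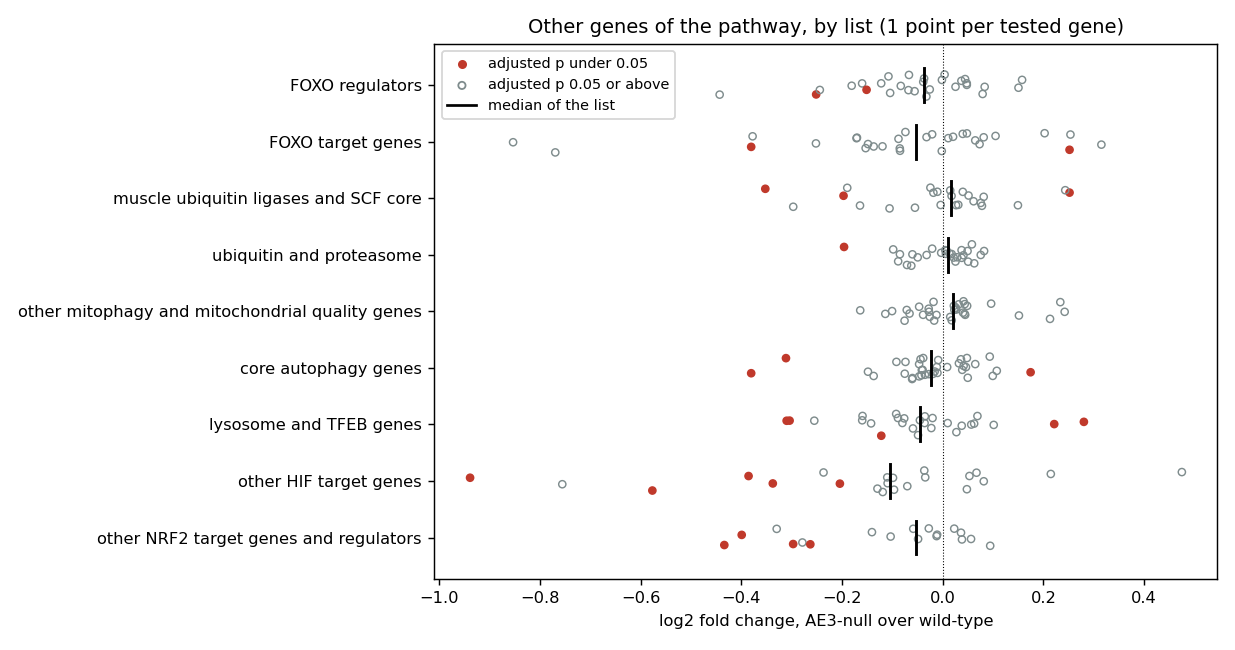
Log2 fold change, AE3-null over wild-type, of every tested gene in 9 pathway lists, 1 point per gene, filled in red where the adjusted p was under 0.05, with the median of each list as a black bar. The called genes of the HIF and NRF2 target lists lie left of 0, 5 of 22 and 4 of 18 genes, and no gene of the mitophagy list is called.

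Among 28 genes that regulate FOXO factors, such as the AKT kinases, 2 fell and 0 rose, 7.14% called against 6.47% of all tested genes, with a median log2 fold change of -0.038. Sgk1, a kinase that phosphorylates FOXO3 as AKT does, averaged 60.7 ± 6.13 CPM in AE3-null and 71.9 ± 4.88 CPM in wild-type hearts (SD, n = 4 each), a log2 fold change of -0.25 (edgeR adjusted p 0.0484). Its call was lost without AE3-null replicate 1 or 4 (edgeR adjusted p 0.139 and 0.119) and without wild-type replicate 2 or 4 (0.113 and 0.149). Ywhaq, a 14-3-3 protein gene, had a log2 fold change of -0.15, and its call was lost without any AE3-null replicate or without wild-type replicate 2 or 4 (edgeR adjusted p 0.0821 to 0.122). The number called in this list was 0 without AE3-null replicate 1, AE3-null replicate 4 or wild-type replicate 2, and 4 without wild-type replicate 3. With total counts only or with the stress score as covariate it was also 0, and 7 of the 28 had an unadjusted p under 0.05.

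Of 30 tested genes reported as FOXO targets, 1 rose and 1 fell, 6.67% against 6.47% of all tested genes, with a median log2 fold change of -0.053. The fall was that of Gabarapl1, which encodes a GABARAP protein of the autophagy membrane. It had 112, 97.8, 97.6 and 107 CPM in AE3-null replicates 1 to 4, against 136, 135, 127 and 142 CPM in wild-type replicates 1 to 4. All AE3-null libraries lay below all wild-type libraries, at a log2 fold change of -0.38 (SE 0.0481, edgeR adjusted p 0.000193), and the call held in all 17 settings. The rise was that of Fbxo21, an F-box protein gene, at log2 0.25 (SE 0.0663, edgeR adjusted p 0.0335). It was lost without AE3-null replicate 1, 3 or 4 or wild-type replicate 1, 2 or 4 (edgeR adjusted p 0.0828 to 0.109). With wild-type replicate 3 left out, 3 FOXO targets rose and 2 fell, and with the stress score as covariate 0 rose and 2 fell. Igfbp1 and G6pc, liver genes in the same list, had no count in any library.

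Fbxo21 also belongs to the list of 24 muscle ubiquitin ligases and SCF subunits, of which 1 rose and 2 fell, 12.5%, with a median log2 fold change of 0.016. Fbxo40, a muscle F-box protein gene, averaged 161 ± 3.70 CPM in AE3-null and 205 ± 22.9 CPM in wild-type hearts (SD, n = 4 each), a log2 fold change of -0.35 (edgeR adjusted p 0.0118). Trim54, which encodes MuRF3, a relative of MuRF1, averaged 263 ± 11.1 CPM in AE3-null and 302 ± 19.9 CPM in wild-type hearts (SD, n = 4 each), a log2 fold change of -0.20 (edgeR adjusted p 0.0183). The call of Trim54 was lost without AE3-null replicate 2, 3 or 4 or wild-type replicate 2 or 4 (edgeR adjusted p 0.0540 to 0.0769). The number called in this list was 1 without AE3-null replicate 3, AE3-null replicate 4, wild-type replicate 2 or wild-type replicate 4, and 5 without wild-type replicate 3. With the stress score as covariate it was 0. In the list of 28 ubiquitin and proteasome genes 1 fell and 0 rose, 3.57%, with a median log2 fold change of 0.011. The number called was 0 without AE3-null replicate 1, 3 or 4 or wild-type replicate 1, 2 or 4, with total counts only and with the stress score as covariate.

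None of the 32 other mitophagy and mitochondrial quality genes, among them parkin, the mitofusins and the fission factors, was called by edgeR, and their median log2 fold change was 0.020. At an unadjusted p under 0.05 there were 5, DESeq2 called 1 higher and limma voom called 0. The gene with the smallest p was Atad3a, a gene of the inner mitochondrial membrane, at log2 0.21 (SE 0.0621, edgeR adjusted p 0.0515). It passed without AE3-null replicate 2 (edgeR adjusted p 0.0334) or wild-type replicate 3 (0.00950), with total counts only (0.0333), with no filter (0.0336) and with a replicate block (0.0276). Without wild-type replicate 3 the list had 1 gene higher and 1 lower. Of 36 core autophagy genes 1 rose and 2 fell, 8.33%, with a median of -0.024. Besides Gabarapl1, Atg13, a subunit of the ULK kinase complex that starts autophagy, fell by 0.31 (SE 0.0555, edgeR adjusted p 0.00353). Stx17, the SNARE that fuses autophagosomes with lysosomes, rose by log2 0.17 (SE 0.0446, edgeR adjusted p 0.0269). The call of Stx17 was lost without AE3-null replicate 1, 3 or 4 or wild-type replicate 1, 2 or 4 (edgeR adjusted p 0.0628 to 0.0844). With the stress score as covariate the calls of Stx17 (edgeR adjusted p 0.243) and Atg13 (0.0810) were lost.

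Of 27 lysosomal genes and their regulators 2 rose and 3 fell, 18.5%, with a median log2 fold change of -0.046. Hexa, which encodes a subunit of a lysosomal enzyme that breaks down gangliosides, fell by 0.30 (SE 0.0539, edgeR adjusted p 0.00307). Atp6v1b2, a subunit of the proton pump that acidifies lysosomes, fell by 0.31 (SE 0.0541, edgeR adjusted p 0.00323). Mitf, a transcription factor related to the lysosomal regulator TFEB, rose by log2 0.22 (SE 0.0450, edgeR adjusted p 0.00774). The number called was 3 without AE3-null replicate 1, 2 or 3 or wild-type replicate 2 or 4. With the stress score as covariate 1 rose and 0 fell, and the calls of Hexa (edgeR adjusted p 0.0834) and Atp6v1b2 (0.0634) were lost.

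Of the 22 other HIF targets 5 fell and 0 rose, 22.7% against 6.47% of all tested genes, with a median log2 fold change of -0.10. Egln3, a prolyl hydroxylase that both senses oxygen and is induced by HIF, had 120, 133, 130 and 123 CPM in AE3-null replicates 1 to 4, against 227, 247, 239 and 254 CPM in wild-type replicates 1 to 4. All AE3-null libraries lay far below all wild-type libraries, at a log2 fold change of -0.94 (SE 0.0438, edgeR adjusted p 6.87e-10). P4ha2, a collagen prolyl hydroxylase, fell by 0.39 and Vegfa, the vascular growth factor, by 0.34, and Ankrd37 and Ndrg1 had log2 fold changes of -0.58 and -0.20. The number lower was 3 without AE3-null replicate 3, AE3-null replicate 4 or wild-type replicate 4, and 3 with the stress score as covariate. A single HIF target was called higher without AE3-null replicate 1, wild-type replicate 1 or wild-type replicate 3. With all libraries, DESeq2 called 1 higher and 6 lower, and edgeR with a replicate block called 1 higher and 5 lower.

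Of 18 NRF2 targets and regulators 4 fell and 0 rose, 22.2%, with a median log2 fold change of -0.054. Txnrd1, a thioredoxin reductase, had 74.1, 79.4, 76.0 and 74.0 CPM in AE3-null replicates 1 to 4, against 101, 104, 98.9 and 105 CPM in wild-type replicates 1 to 4. The groups did not overlap, at a log2 fold change of -0.43 (SE 0.0401, edgeR adjusted p 1.98e-05), and the call held in all 17 settings. Srxn1, a sulfiredoxin that restores oxidized peroxiredoxins, fell by 0.40, Ftl1, the ferritin light chain, by 0.26, and Gclm, a subunit of the enzyme that starts glutathione synthesis, by 0.30. The Ftl1 gene has near-identical copies in the mouse genome, so its count is uncertain. With the stress score as covariate 1 gene of the list was lower, and the calls of Srxn1 (edgeR adjusted p 0.105) and Ftl1 (0.104) were lost.

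Markers of other cell types were read in the same libraries. Of 10 endothelial markers 4 fell and 0 rose, and their summed level was 1376 to 1467 CPM in AE3-null and 1592 to 1747 CPM in wild-type hearts. The endothelial count was 2 without AE3-null replicate 1 or 2 and 1 without AE3-null replicate 4 or with the stress score as covariate. Of 8 atrial markers 7 rose and 0 fell, 87.5% called, with a median log2 fold change of 0.41. Their sums were 4047 to 4643 CPM in AE3-null and 3050 to 3619 CPM in wild-type hearts. The 7 red blood cell markers matched, of which 5 were tested and 0 called by edgeR (4 at an unadjusted p under 0.05, and 4 lower by DESeq2 and by limma voom), summed to 2818 to 3928 CPM in AE3-null and 4059 to 6474 CPM in wild-type hearts. Of the red cell markers, Hba-a1 and Hba-a2 had the same log2 fold change, -0.575142. Their rows may hold the same reads, so these counts and sums may include them more than once. None of the endothelial, atrial or red cell markers was at 0. Their part in the results of the 10 genes was not tested.

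Heart and skeletal muscle share the atrogenes, so skeletal muscle markers were also read. Of the 10 markers 6 were tested and 0 called by edgeR, DESeq2 or limma voom (1 at an unadjusted p under 0.05), and their sum of 2165 to 2327 CPM in AE3-null and 2322 to 2496 CPM in wild-type hearts was mostly Ckm, which heart muscle expresses as well. Tnnt3, Tnnc2, Mylpf and Myf6 did not exceed 0.750 CPM in any library, and Myf6 was at 0 in all.

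Heat shock and immediate early genes, which respond to stress and to handling of tissue, summed to 2142 to 2501 CPM in AE3-null and 2168 to 3917 CPM in wild-type hearts. None of the 20 was at 0, 2 fell and 0 rose, and 5 fell without wild-type replicate 3. A single gene fell without AE3-null replicate 1, 2 or 3 or wild-type replicate 1, 2 or 4. The mean of log2(CPM + 0.5) over this list ran from 5.18 to 5.70 in AE3-null libraries. In wild-type hearts it was 5.23 in replicate 3 and 5.82 to 6.16 in replicates 1, 2 and 4. Only wild-type replicate 3 lay within the AE3-null range of this mean, so a fit with it as covariate cannot separate it from genotype. What a call lost in that setting depends on was not tested. With this mean as a covariate in the fit, 239 of all tested genes and 1 of the 10 members were called. Sqstm1 then had a log2 fold change of -0.29 (edgeR adjusted p 0.00575), Bnip3 -0.44 (0.168), Foxo1 -0.19 (0.0982) and Fbxo32 -0.11 (0.304).

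**Figure D5:**
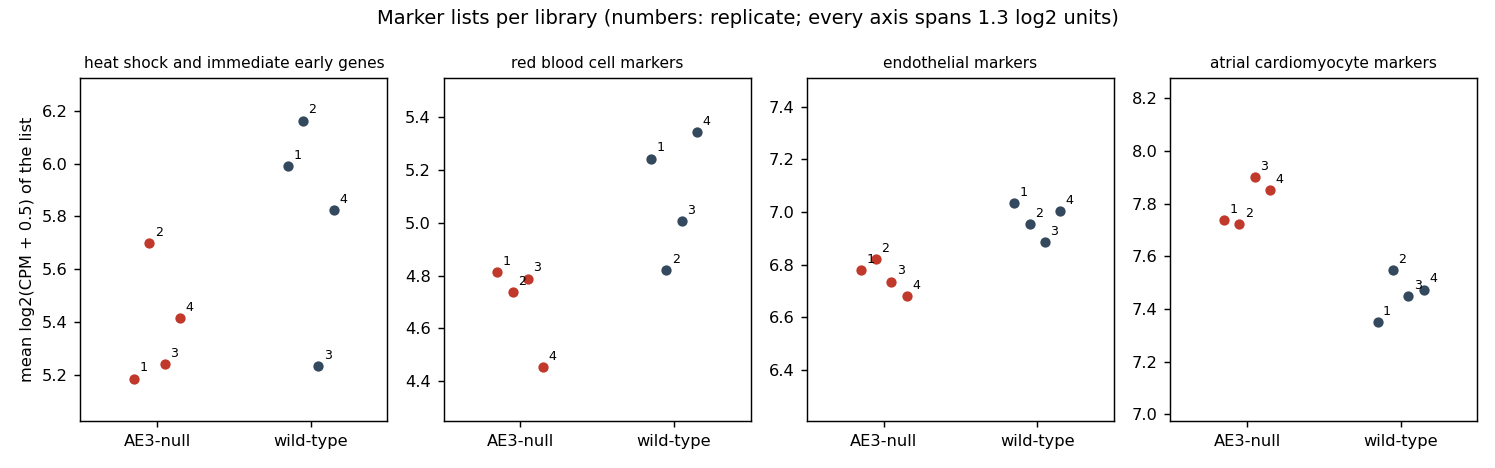
Mean log2(CPM + 0.5) of 4 marker lists in every library, with AE3-null libraries on the left and wild-type libraries on the right and the replicate number beside each point. Wild-type replicate 3 lies at 5.23 in the heat shock and immediate early list, below wild-type replicates 1, 2 and 4 at 5.82 to 6.16. The groups do not overlap for the endothelial, atrial and red blood cell lists. For the red blood cell list the gap is narrow, with AE3-null at 4.45 to 4.81 and wild-type at 4.82 to 5.35.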

How the data were processed

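RNA-seq of hearts from 4 AE3-null and 4 wild-type mice was analysed from the read counts per gene deposited by the authors, unnormalized. The submitters' processing notes name bcl2fastq from CASAVA 1.8, TopHat, genome build mm9 and DESeq. How reads were assigned to genes, and whether by strand, is not given in the sources used here, so reads of overlapping genes cannot be assigned with certainty. Of 23282 Entrez numbers 23185 matched a RefSeq symbol of GRCm38.p6, which was used for names and promoter sequences only. Exon lengths came from GENCODE on the same assembly. edgeR 4.0.16 (R 4.3.3) with filterByExpr at a minimum count of 10, TMM factors and robust quasi-likelihood tests compared the genotypes, with no covariate. Fold changes are AE3-null over wild-type, and intervals use the moderated degrees of freedom. Alternatives were other size factors, no filter or a minimum count of 50, DESeq2 1.42.0, limma 3.58.1 voom, no robust moderation, each library left out, a replicate block and a stress score as covariate. The steps were tested on simulated counts. No library was a copy of another of its group (chi-square per gene 2.57 to 7.63).

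The members and lists were chosen with earlier results of these data known. The text names all members and Slc4a3, and from each list up to 3 called genes of smallest p, or the 1 of smallest p where none was called, except that marker lists are given as counts and sums. For each called member it also names the 3 genes of at least 5 CPM nearest in profile. Other genes were named after their values were seen (Ankrd37, Ndrg1 and Gclm), and some genes that the rule names are not reported here. In the fibroblast list 2 of 10 genes fell, in the smooth muscle and pericyte list 2 of 10 rose, and in the cardiomyocyte list 2 of 10 rose. Each of these shares was 20.0%, against 6.47% of all tested genes. By edgeR 0 of 10 macrophage and 0 of 6 tested adipocyte genes were called (1 and 0 at an unadjusted p under 0.05, 1 and 0 by DESeq2, 0 and 0 by limma voom). The fibroblast count was 5, with 3 higher and 2 lower, without wild-type replicate 3 and 1 when any one of the other 7 libraries was left out. The cardiomyocyte count was 1 when any single library other than AE3-null replicate 4 was left out, and the smooth muscle count was 1 without AE3-null replicate 4.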

Additional observations from a re-analysis of the deposited data

How the results depend on the processing

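The call of Sqstm1 and the direction of the 4 called members held in all 17 alternatives, while the calls of Foxo1, Fbxo32 and Bnip3 were lost in 13, 9 and 2 of them. With a single library left out, the genes called numbered 407 to 1727 (915 with all libraries), the members called 1 to 4 and the other pathway genes called 13 to 35. With the stress score as covariate these counts were 239, 1 and 7, and with total counts only 2 members were called. Total counts only also moved the split over all genes to 528 higher and 361 lower, against 447 and 468. Foxo3 ranged from -0.095 to 0.051 and Pink1 from -0.029 to 0.013 with single libraries left out, and Pink1 was 0.0050 with total counts only. The cause of these shifts was not tested. Same-numbered libraries did not deviate together (correlations of -0.040 to 0.16), and of the AE3-null libraries replicate 1 alone correlated best with its own number, so the replicate numbers were not taken to pair them. With a replicate block 1002 genes, 3 members and 27 other pathway genes were called, and Foxo1 lost its call (edgeR adjusted p 0.0644). Fundc1 had the fewest counts of the members, with 221 to 638 a library.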

Other observations

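For each called member, the tested genes of at least 5 CPM with the most similar profile over the 8 libraries were found by the root mean square distance of log2(CPM + 0.5), each gene centred on its mean. This likeness includes the genotype difference and is a description. The genes nearest to Bnip3 were Lrrcc1, the innate immune receptor Tlr4 and the ketone body enzyme Bdh1, at distances of 0.0603, 0.0850 and 0.0884 against a spread of 0.277 for Bnip3 itself. They fell by 0.46, 0.48 and 0.38 on the log2 scale (edgeR adjusted p 0.00501, 0.0118 and 0.0216). The genes nearest to Sqstm1 were Cyb5d2, the ferritin light chain gene Ftl1 and Aplp2, at distances of 0.0374, 0.0444 and 0.0455 against a spread of 0.146. They fell by 0.25, 0.26 and 0.20 (edgeR adjusted p 0.0186, 0.00828 and 0.00305).

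Nearest to Fbxo32 were Ubtf, Klhl21 and Arpc3, at distances of 0.0343 to 0.0376 against a spread of 0.0950, of which Klhl21 (log2 -0.22) and Arpc3 (log2 -0.19) were called. Nearest to Foxo1 were Rad50, Arf3 and Tmc8, at distances of 0.0190 to 0.0247 against a spread of 0.0854, and none of these was called by edgeR (adjusted p 0.0569 to 0.363).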
